A study of Homo sapiens with 12 samples.

Results

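Mitophagy receptors are the proteins that mark a mitochondrion for removal by autophagy. The 6 genes described here are BNIP3, BNIP3L, FUNDC1, PINK1, FKBP8 and BCL2L13, all found by gene symbol among the 47634 gene IDs listed for each library. All 6 passed the filter on low counts that left 11051 genes for testing. The libraries come from HepG2, an established line of human liver carcinoma cells that still make many hepatocyte proteins. There were 4 groups of 3 libraries. They were ATP7B knockout (KO) cells given copper for 24 h, untreated ATP7B KO cells, wild type (WT) cells given copper for 24 h, and untreated WT cells. The ATP7B protein pumps copper out of liver cells, and its loss causes Wilson disease. The labels name 1 KO line, call the replicates biological, and give neither the copper dose nor the position of the edit. With 1 KO line, loss of ATP7B cannot be told apart from other differences between the KO and WT lines. Tests of KO against WT measure the spread between libraries of these lines only. The study concerned the response of liver-derived cells to copper with and without this exporter, and total RNA of each culture was read by 3′ mRNA sequencing (QuantSeq).

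In mitophagy a damaged or surplus mitochondrion is enclosed by a membrane that carries LC3 and GABARAP proteins and is then delivered to the lysosome. BNIP3 and BNIP3L (also called NIX) are paired outer membrane receptors that bind LC3 and GABARAP directly, and both are well known as genes that hypoxia-inducible factor (HIF) switches on when oxygen is low. FUNDC1 is an outer membrane receptor whose activity in hypoxia is set mainly by loss of phosphate groups from the protein, and FKBP8 and BCL2L13 are outer membrane receptors that bind LC3 without a known need for HIF. PINK1 is not a receptor but a kinase that builds up on depolarised mitochondria and phosphorylates ubiquitin there. BNIP3 and BNIP3L are called the hypoxia-driven genes below, and the remaining 4 the other genes.

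The promoters of BNIP3 and FUNDC1 are shown because one belongs to a classical HIF target and the other to a receptor that is controlled mainly as a protein. Both sequences are from RefSeq (GRCh38.p14), run 5′ to 3′ on the strand of the gene and cover 250 bases before to 50 after the annotated start. Capitals mark the HIF core motifs ACGTG and GCGTG on either strand, so that CACGC in capitals is GCGTG read on the other strand and CACGTG holds ACGTG on both.
BNIP3, chr10:131981874-131982173, minus strand: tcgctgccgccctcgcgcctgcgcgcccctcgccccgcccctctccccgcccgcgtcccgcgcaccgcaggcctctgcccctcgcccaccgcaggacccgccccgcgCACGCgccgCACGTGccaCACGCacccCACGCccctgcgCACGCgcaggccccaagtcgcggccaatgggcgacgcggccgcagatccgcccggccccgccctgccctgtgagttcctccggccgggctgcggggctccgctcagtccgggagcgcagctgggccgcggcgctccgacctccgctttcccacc
FUNDC1, chrX:44542810-44543109, minus strand: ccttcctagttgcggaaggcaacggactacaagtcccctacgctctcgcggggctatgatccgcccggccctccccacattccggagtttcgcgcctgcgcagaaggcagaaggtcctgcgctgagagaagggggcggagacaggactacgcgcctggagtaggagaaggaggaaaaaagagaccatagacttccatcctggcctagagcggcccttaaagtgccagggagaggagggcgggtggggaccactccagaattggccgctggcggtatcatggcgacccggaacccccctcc
The BNIP3 window held 2 matches of ACGTG, both in the same CACGTG, and 4 matches of GCGTG, with first bases between positions -143 and -104 from the start. The FUNDC1 window held 0 matches. Of 35116 promoters of the same length, 48.4% held at least 1 match and 0.923% held 6 or more. GC content was 80.7% in the BNIP3 window and 63.0% in the FUNDC1 window. BCL2L13 had 3 annotated windows with 0, 1 and 0 matches. Binding was not measured here, and a match describes letters in a window.

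Totals ran from 2388597 to 2807634 counts in KO copper libraries, 976658 to 3277087 in KO untreated, 1873703 to 2581954 in WT copper and 3561723 to 3829151 in WT untreated. Levels are given as CPM, the count over the library's total scaled to a common depth, and 3 counts equalled 0.783 CPM in the deepest library and 3.07 CPM in the shallowest. On the first principal component, which carried 44.2% of the variance, KO untreated replicates 1 and 2 stood at 111 and 120.4 and WT copper replicate 1 at 23.9, while the other 9 libraries were below 0. These 3 libraries stood apart, and values are also given from a fit of the other 9. The 3 were picked on these same data, so p values from that fit are not independent support. Within KO untreated, however, replicates 1 and 2 lay close to each other, and replicate 3, at -4.39, was the one unlike the rest of its group. Which KO untreated libraries are aberrant is therefore not known, and the fit of 9 is not the cleaner one for that group. That fit holds 3 KO copper libraries, 1 KO untreated library (replicate 3), 2 WT copper and 3 WT untreated libraries. Its tests against KO untreated therefore assume that this lone library varies like those of the other groups. ATP7B had 3.92 to 6.77 CPM in KO copper, 2.05 to 11.6 in KO untreated, 3.87 to 5.34 in WT copper and 12.4 to 13.1 in WT untreated libraries. Since the place of the edit is not given, these 3′ counts do not check the genotype. All 10 hepatocyte markers were detected, with a summed level of 5138 to 5245 CPM in KO copper, 10195 to 12986 in KO untreated, 10353 to 11400 in WT copper and 21714 to 22728 in WT untreated. Fibroblast markers summed to 2.77 to 55.7 CPM, leukocyte markers to 7.95 to 23.5 CPM with CD3E at 0, and endothelial markers to 0 to 10.2 CPM with KDR at 0. In these bulk samples fewer cells of a type and less RNA per cell cannot be told apart.

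BNIP3 was the most abundant of the 6 genes in 11 of the 12 libraries, and in KO untreated replicate 2 FUNDC1 was level with it. BNIP3 had 50.2, 56.1 and 60.1 CPM in KO copper libraries and 43.6, 57.3 and 62.6 CPM in KO untreated libraries. In WT copper libraries it had 158, 210 and 221 CPM, and in WT untreated libraries 288, 308 and 339 CPM. All 6 KO libraries lay below all 6 WT libraries, and within WT every copper library lay below every untreated one. BNIP3L, its close relative, had 38.1, 33.1 and 38.2 CPM in KO copper, and 6.24, 10.2 and 30.2 CPM in KO untreated. It had 55.5, 98.0 and 119 CPM in WT copper, and 134, 139 and 129 CPM in WT untreated. Again no KO library reached a WT library. Both KO untreated libraries that stood apart held the lowest BNIP3L levels of all, from 9 and 10 counts, and WT copper replicate 1 held the lowest level within its group.

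The other genes sat below BNIP3 and BNIP3L in every KO copper and WT library. In KO untreated replicates 1 and 2, FUNDC1 and FKBP8 were above BNIP3L, as were PINK1 and BCL2L13 in replicate 1, and in replicate 3 FUNDC1 was level with it. FUNDC1 had 23.9, 25.1 and 31.1 CPM in KO copper, 22.2, 58.4 and 30.2 in KO untreated, 25.1, 20.5 and 19.8 in WT copper, and 24.0, 29.2 and 24.1 in WT untreated. Its groups overlapped apart from KO untreated replicate 2, which was the highest library. PINK1 had 31.0, 23.0 and 31.9 CPM in KO copper, 11.1, 9.22 and 23.8 in KO untreated, 24.0, 21.4 and 23.6 in WT copper, and 19.8, 21.2 and 18.8 in WT untreated. The 2 low values were again the KO untreated libraries that stood apart. FKBP8 was the least abundant gene in 3 of the 4 groups, with 5.34, 2.51 and 5.57 CPM in KO copper, 22.2, 17.4 and 6.41 in KO untreated, 12.8, 4.79 and 4.65 in WT copper, and 10.5, 11.5 and 11.8 in WT untreated. Here the libraries that stood apart were the highest of their groups, where for BNIP3L they were the lowest. BCL2L13 had 18.2, 18.8 and 19.9 CPM in KO copper, 13.2, 3.07 and 12.2 in KO untreated, 13.9, 18.3 and 17.4 in WT copper, and 19.8, 21.2 and 19.9 in WT untreated. The value of 3.07 CPM rests on 3 counts. No length correction applies, since the method makes about 1 fragment per transcript at its 3′ end. Shared or overlapping reads, described below for BNIP3, PINK1, BNIP3L and FKBP8, can still shift the level of a gene. The order of the genes by CPM is therefore approximate.

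**Figure D1:**
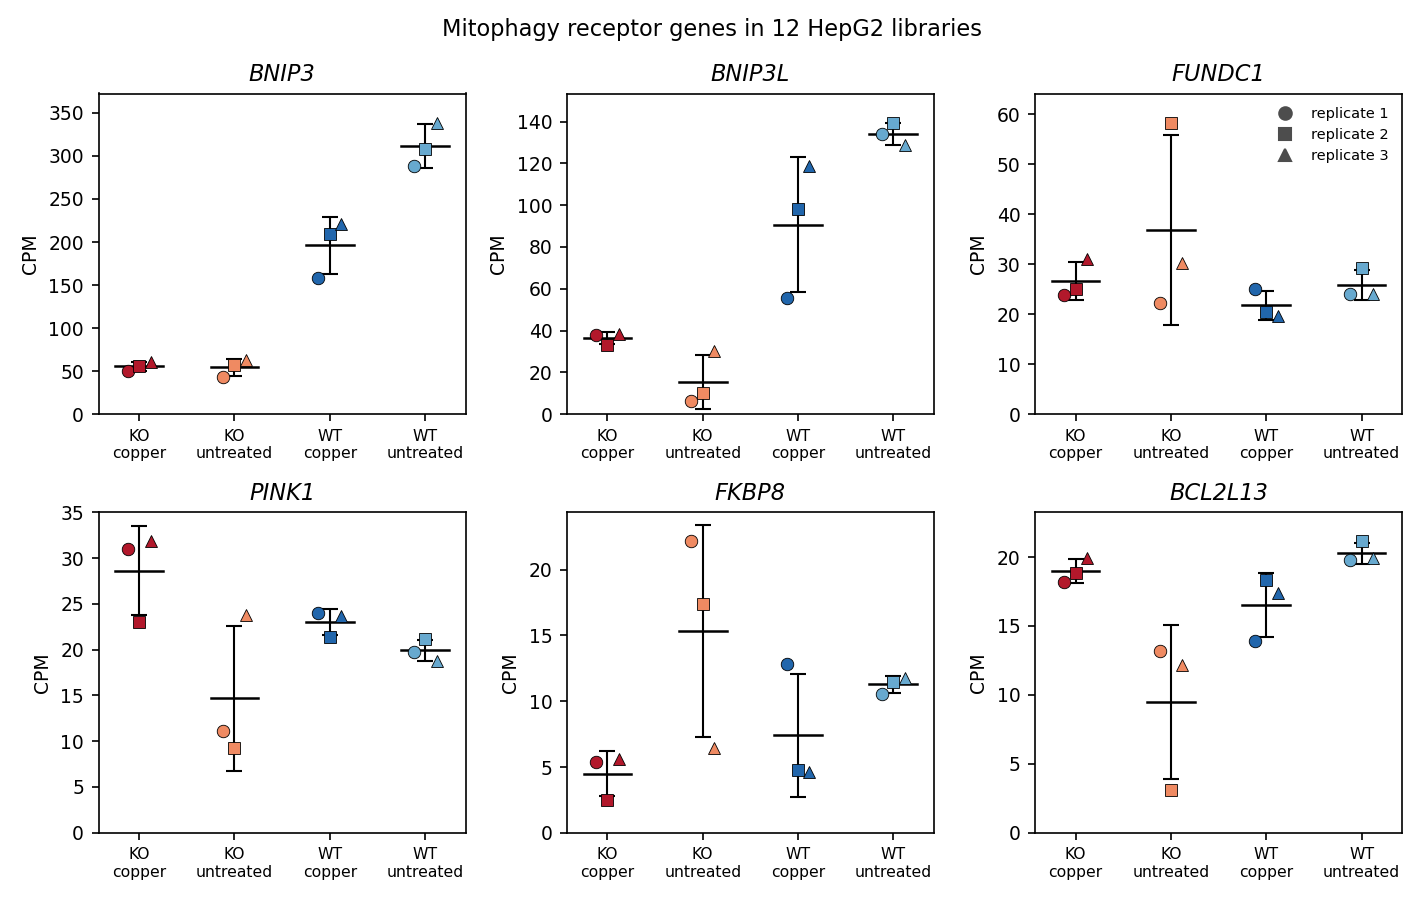
CPM of each gene in each of the 12 libraries (points, symbol by replicate), with group means as horizontal lines and SD as error bars, groups running from KO copper to WT untreated. BNIP3 and BNIP3L are lower in all KO than in all WT libraries, whereas KO and WT libraries of FUNDC1 and PINK1 overlap.

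The order of the group means was the same in both lines with copper and differed without it. In KO copper cells the means were 55.5 ± 5.0 CPM for BNIP3, 36.5 ± 2.9 for BNIP3L, 28.6 ± 4.9 for PINK1, 26.7 ± 3.8 for FUNDC1, 19.0 ± 0.88 for BCL2L13 and 4.48 ± 1.7 for FKBP8 (SD, n = 3), and PINK1 and FUNDC1 were the only neighbours in that order to overlap. In KO untreated cells they were 54.5 ± 9.8 for BNIP3, 36.9 ± 19.0 for FUNDC1, 15.6 ± 12.8 for BNIP3L, 15.3 ± 8.1 for FKBP8, 14.7 ± 7.9 for PINK1 and 9.48 ± 5.6 for BCL2L13, and every pair of neighbours overlapped. In WT copper cells they were 196 ± 33.5 for BNIP3, 90.7 ± 32.1 for BNIP3L, 23.0 ± 1.4 for PINK1, 21.8 ± 2.9 for FUNDC1, 16.5 ± 2.3 for BCL2L13 and 7.42 ± 4.7 for FKBP8, with PINK1 and FUNDC1 again the only overlap. In WT untreated cells they were 312 ± 25.3 for BNIP3, 134 ± 5.3 for BNIP3L, 25.8 ± 3.0 for FUNDC1, 20.3 ± 0.76 for BCL2L13, 19.9 ± 1.2 for PINK1 and 11.3 ± 0.65 for FKBP8, and BCL2L13 and PINK1 alone overlapped.

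Without copper, KO cells had far less mRNA of both hypoxia-driven receptors than WT cells. BNIP3 averaged 54.5 ± 9.8 CPM in KO and 312 ± 25.3 CPM in WT cells, a fitted log2 fold change of -2.64 ± 0.20 (SE), or 6.23-fold lower (edgeR quasi-likelihood test, Benjamini-Hochberg adjusted p = 1.2e-05). BNIP3L averaged 15.6 ± 12.8 CPM in KO and 134 ± 5.3 CPM in WT cells, a log2 fold change of -3.14 ± 0.43 (edgeR adjusted p = 0.000549). BCL2L13 fell too, by 1.14 ± 0.32 on the log2 scale (edgeR adjusted p = 0.0199), with all 3 KO libraries below all 3 WT libraries. FUNDC1 was at 0.36 ± 0.31, PINK1 at -0.49 ± 0.29 and FKBP8 at 0.25 ± 0.49, with edgeR adjusted p of 0.384, 0.211 and 0.711. Thus 3 of the 6 genes were called lower and 0 higher, where over all genes tested 14.0% were called lower and 17.9% higher. Libraries without overlap, KO below WT, were seen for those same 3 genes and for 19.1% of all genes tested. No gene of the 6 had KO libraries wholly above WT libraries, as 25.7% of all genes tested did.

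How far BNIP3L fell depended on the KO library. Its log2 fold change was -4.12 without KO untreated replicate 3 and -2.35 in the fit of 9 libraries, where KO untreated is replicate 3 alone, both called. BNIP3 stayed between -2.81 and -2.52 under every alternative run and was called in each. BCL2L13 was at -0.93 in the fit of 9 (edgeR adjusted p = 0.006), a test that takes the spread of the lone KO untreated library from the other groups. It lost its call without WT untreated replicate 1 or 2, with edgeR adjusted p of 0.0532 and 0.0604 and fold changes of -1.18 and -1.12. FKBP8 turned round when the 3 libraries were left out, to -1.01 (edgeR adjusted p = 0.0312), which made 4 of 6 genes lower against 17.7% of all genes tested in that fit. PINK1 was at -0.99 and called without KO untreated replicate 3 (edgeR adjusted p = 0.00781), and at 0.054 without the 3 libraries (0.889).

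With copper present in both lines, BNIP3 and BNIP3L were again lower in KO cells and the other genes were not called. BNIP3 averaged 55.5 ± 5.0 CPM in KO copper and 196 ± 33.5 CPM in WT copper cells, a log2 fold change of -1.85 ± 0.19, or 3.62-fold lower (edgeR adjusted p = 0.000142). BNIP3L averaged 36.5 ± 2.9 CPM in KO copper and 90.7 ± 32.1 CPM in WT copper cells, a log2 fold change of -1.34 ± 0.40 (edgeR adjusted p = 0.0418). FUNDC1 was at 0.26 ± 0.32, PINK1 at 0.28 ± 0.28, BCL2L13 at 0.16 ± 0.31 and FKBP8 at -0.71 ± 0.56, with edgeR adjusted p between 0.431 and 0.769. Calls lower numbered 2 of 6, against 8.03% of all genes tested, and calls higher 0 of 6, against 5.77%. In 20.0% of all genes tested, the 3 KO copper libraries lay below the 3 WT copper libraries without overlap, as they did for BNIP3 and BNIP3L alone among the 6, and in 26.4% they lay wholly above, as for 0 of the 6. BNIP3 was called under every alternative. BNIP3L lost its call without any one of 8 libraries, which were WT copper replicates 2 and 3 (edgeR adjusted p = 0.112 and 0.122, at -1.31 and -1.10), each KO copper library (0.123 to 0.138) and each WT untreated library (0.0685 to 0.0693). BNIP3L was at -1.65 without the 3 libraries that stood apart.

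**Figure D2:**
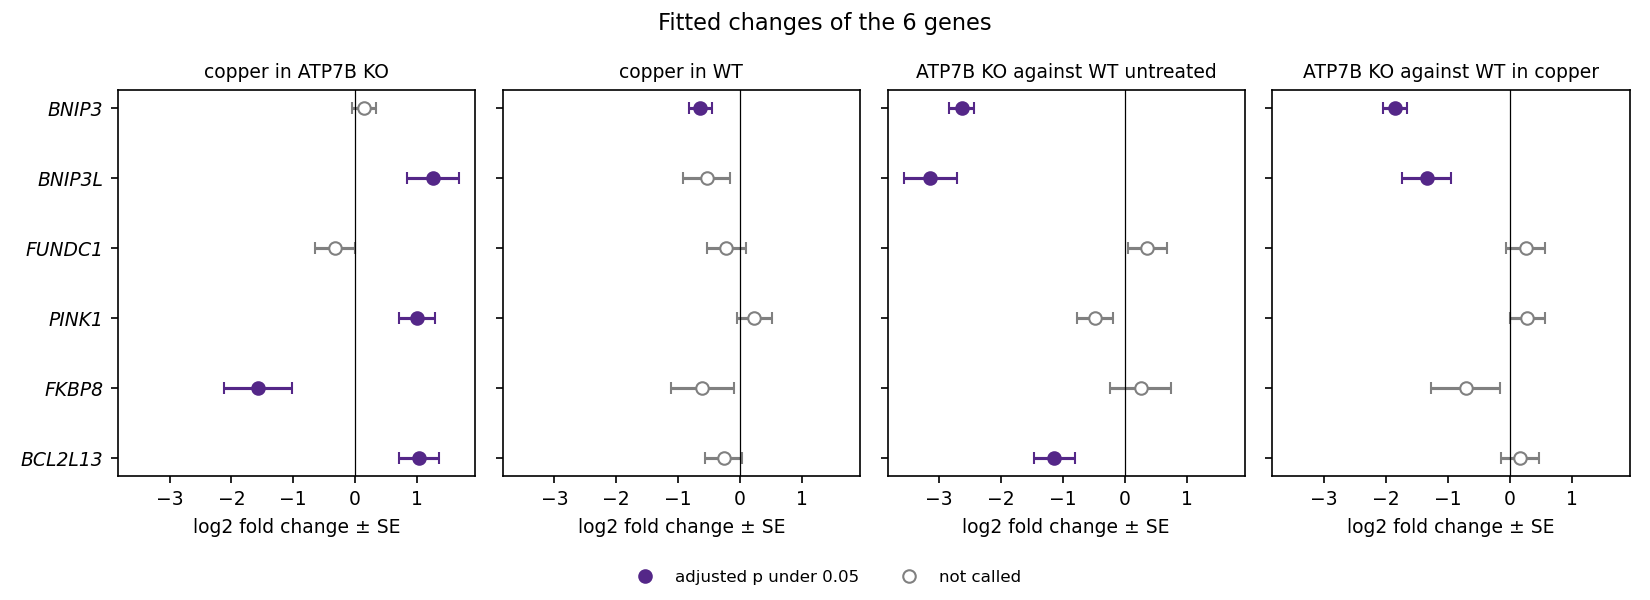
Fitted log2 fold changes of the 6 genes with SE bars in the 4 comparisons of groups, filled where the edgeR adjusted p was under 0.05. BNIP3 and BNIP3L are negative and called in both comparisons of KO with WT, and the 4 called genes for copper in KO do not include BNIP3.

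Within the KO line, copper went with more BNIP3L, PINK1 and BCL2L13 mRNA and less FKBP8 mRNA. BNIP3L averaged 36.5 ± 2.9 CPM with copper and 15.6 ± 12.8 CPM untreated, a log2 fold change of 1.26 ± 0.42 (edgeR adjusted p = 0.037). PINK1 averaged 28.6 ± 4.9 CPM with copper and 14.7 ± 7.9 CPM untreated, a fitted rise of 2.01-fold (edgeR adjusted p = 0.0203). BCL2L13 rose by 1.03 ± 0.33 (edgeR adjusted p = 0.0299). FKBP8 averaged 4.48 ± 1.7 CPM with copper and 15.3 ± 8.1 CPM untreated, at -1.57 ± 0.55 (edgeR adjusted p = 0.0431). BNIP3 was at 0.14 ± 0.19 (0.592) and FUNDC1 at -0.33 ± 0.32 (0.443). Calls numbered 3 of 6 higher and 1 of 6 lower, where 15.2% of all genes tested were called higher, 18.5% lower and 33.7% in either direction. Libraries did not overlap for BNIP3L and BCL2L13, which were higher with copper, and for FKBP8, which was lower, against 19.1% and 25.1% of all genes tested in the 2 directions. PINK1 overlapped, since KO copper replicate 2 had 23.0 CPM and KO untreated replicate 3 had 23.8 CPM.

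Of these 4 calls, 3 were lost in the fit of 9 libraries, which sets KO copper against KO untreated replicate 3 alone with the spread taken from the other groups. It put BNIP3L at 0.45 (edgeR adjusted p = 0.0632), PINK1 at 0.45 (0.13) and FKBP8 at -0.32 (0.595), and BCL2L13 was called at 0.81 (0.0183). Leaving out KO untreated replicate 1 gave 0.89 for BNIP3L (edgeR adjusted p = 0.105), 0.82 for PINK1 (0.073) and -1.08 for FKBP8 (0.199). Without replicate 2 the values were 1.05 (0.107), 0.79 (0.0551) and -1.45 (0.0981). Without replicate 3 they were larger, at 2.22 for BNIP3L, 1.50 for PINK1 and -2.11 for FKBP8, all called. Calls were also lost without a single KO copper library, for BNIP3L and FKBP8 without any of the 3 (edgeR adjusted p from 0.068 to 0.135) and for PINK1 without replicate 1 or 3 (0.073 and 0.0631). BNIP3L and FKBP8 lost theirs without any one WT untreated library (edgeR adjusted p from 0.054 to 0.0588), BNIP3L without WT copper replicate 2 (0.0524) and FKBP8 with voom in limma (0.12). BCL2L13 lost its call without any one KO copper library (edgeR adjusted p from 0.0708 to 0.0736) and with no filter on low counts (0.0586). Ribosomal protein genes took 5.75% and 4.99% of the counts in KO untreated replicates 1 and 2, against 8.89% to 13.5% in the other 10 libraries. The part of these library differences in the 4 calls was not tested.

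In WT cells copper went with less BNIP3. Its level was 196 ± 33.5 CPM with copper and 312 ± 25.3 CPM untreated, a log2 fold change of -0.64 ± 0.18, or 1.56-fold lower (edgeR adjusted p = 0.0353). BNIP3L averaged 90.7 ± 32.1 CPM with copper and 134 ± 5.3 CPM untreated, and was not called at -0.54 ± 0.38 (edgeR adjusted p = 0.369). The remaining log2 fold changes were 0.23 ± 0.28 for PINK1, -0.22 ± 0.31 for FUNDC1, -0.27 ± 0.30 for BCL2L13 and -0.61 ± 0.51 for FKBP8, with edgeR adjusted p between 0.449 and 0.671. So 1 of 6 genes was called lower and 0 higher, against 6.68% and 8.23% of all genes tested and 14.9% in either direction, a share near the background. WT copper libraries lay wholly below WT untreated libraries for BNIP3, BNIP3L and BCL2L13, as for 27.1% of all genes tested, and wholly above them for PINK1, as for 21.3%.

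The BNIP3 call in WT cells was a narrow one. It was lost with no filter on low counts (edgeR adjusted p = 0.153) and without any one of 8 libraries, which were each WT untreated library (0.0828 to 0.124), each KO copper library (0.0572 to 0.0603) and WT copper replicates 1 and 2 (0.112 and 0.0911). The fold change stayed between -0.76 and -0.47 throughout, and was -0.47 without the 3 libraries that stood apart. FKBP8 was at -1.19 in that fit.

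The interaction of line and copper asks whether copper moved a gene by another amount in KO than in WT cells. No gene of the 6 was called by edgeR, where 4.93% of all genes tested were. At an unadjusted p under 0.05 there were 3, namely BNIP3L at 1.80 ± 0.57 (edgeR adjusted p = 0.0704), BNIP3 at 0.78 ± 0.27 (0.0835) and BCL2L13 at 1.30 ± 0.45 (0.0849). DESeq2 called these 3, with adjusted p of 0.0261, 0.0475 and 0.0345. It also called more of all genes than edgeR did, as given below. PINK1 was at 0.77 ± 0.40, FKBP8 at -0.97 ± 0.75 and FUNDC1 at -0.10 ± 0.45. Without the 3 libraries that stood apart, BNIP3L was at 0.70 and FKBP8 turned to 0.87. Leaving out KO untreated replicate 3 gave 5 calls, all but FUNDC1, with BNIP3L at 2.71. That fit called 5888 genes in all, so many calls among the 6 are not particular to them. So the copper effects on BNIP3 and BNIP3L were not shown to differ between the lines by the main test. Their fitted values were positive in KO and negative in WT cells, but only BNIP3L in KO and BNIP3 in WT cells were called.

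Within each library, the hypoxia-driven genes stood less far above the other genes in KO than in WT cells. The mean log2(CPM + 1) of BNIP3 and BNIP3L minus that of the other 4 genes was 1.34, 1.61 and 1.33 in KO copper, 0.046, 0.81 and 1.42 in KO untreated, 2.31, 3.25 and 3.42 in WT copper, and 3.40, 3.33 and 3.46 in WT untreated libraries. Every KO library was below every WT library. The group means were 1.43 ± 0.16 in KO copper, 0.76 ± 0.69 in KO untreated, 2.99 ± 0.60 in WT copper and 3.39 ± 0.065 in WT untreated. KO differed from WT by -2.63 without copper and by -1.57 with it, and over the 9 libraries by -1.97 and -1.91. Copper differed from untreated by 0.67 in KO and by -0.40 in WT cells. Over the 9 libraries these copper differences were 0.0021 in KO, from a single untreated library, and -0.060 in WT cells. Leaving out 1 library at a time gave 0.31 (without KO untreated replicate 1) to 0.999 (without KO untreated replicate 3) in KO and -0.62 to -0.060 (without WT copper replicate 1) in WT cells. Taking BNIP3 alone against the other 4 turned the copper difference in KO to -0.042, and BNIP3L alone gave 1.38.

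The summed level of the other 4 genes overlapped between all groups. It was 69.5 to 88.4 CPM in KO copper, 68.6 to 88.1 in KO untreated, 64.9 to 75.8 in WT copper and 74.1 to 83.0 in WT untreated libraries. BNIP3 and BNIP3L together summed to 88.3 to 98.3 CPM in KO copper, 49.9 to 92.8 in KO untreated, 213 to 339 in WT copper and 423 to 467 in WT untreated. They made up 52.7% to 56.2% of the 6 genes in KO copper, 42.1% to 56.1% in KO untreated, 73.8% to 83.8% in WT copper and 84.3% to 86.2% in WT untreated. The pair did not keep a fixed ratio. BNIP3 over BNIP3L was 1.32 to 1.70 in KO copper, 7.0, 5.6 and 2.07 in KO untreated replicates 1, 2 and 3, 1.86 to 2.85 in WT copper and 2.15 to 2.63 in WT untreated.

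**Figure D3:**
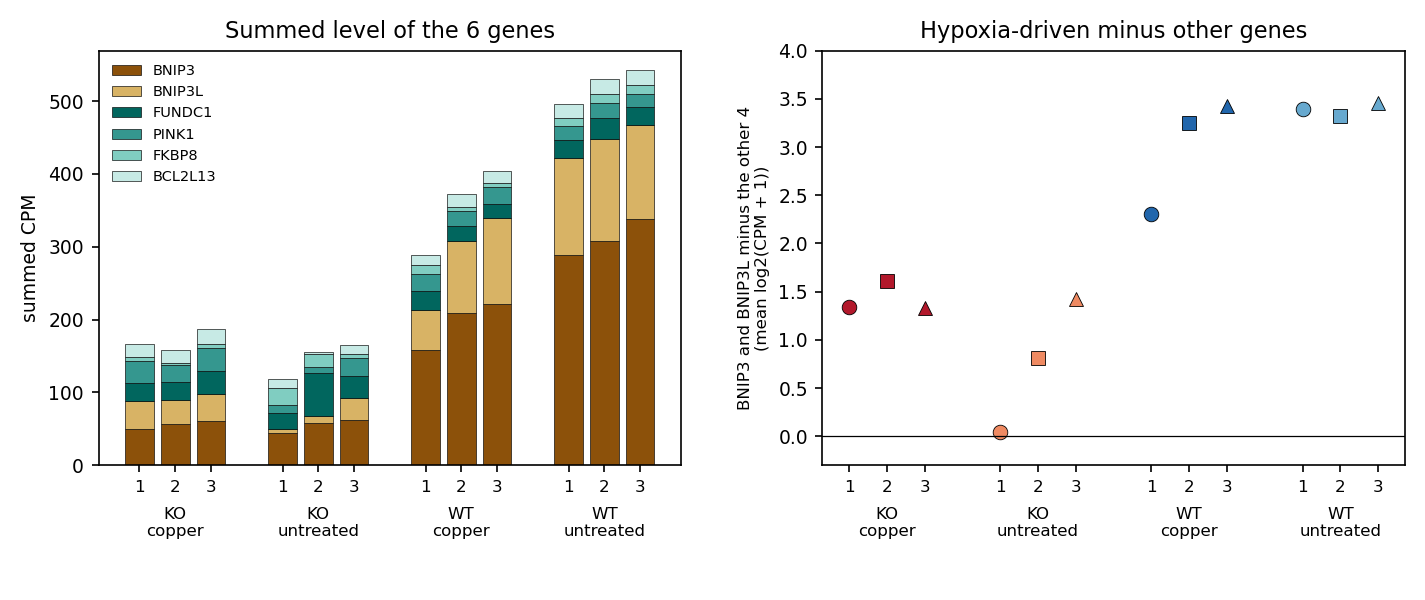
Left, summed CPM of the 6 genes in each library as stacked bars, from KO copper to WT untreated. Right, the mean log2(CPM + 1) of BNIP3 and BNIP3L minus that of the other 4 genes per library, which is at most 1.61 in KO and at least 2.31 in WT libraries.

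Several counts may share reads with neighbours or copies. BNIP3P1, a pseudogene of BNIP3, had 19.9, 18.8 and 15.9 CPM in KO copper, 5.54, 2.05 and 13.7 in KO untreated, 10.1, 45.3 and 45.3 in WT copper, and 83.8, 88.5 and 82.0 in WT untreated libraries. Within KO untreated and WT copper, the lowest values were those of the libraries that stood apart. Summing BNIP3P1 and BNIP3 counts gave log2 fold changes of -2.81 for KO against WT untreated, -1.67 for KO against WT in copper, -0.76 for copper in WT and 0.37 for copper in KO, with the same calls. The interaction became 1.14 and was called (edgeR adjusted p = 0.0457). PINK1-AS, an antisense gene that covers the 3′ end of PINK1, held 140 counts in all against 703 for PINK1. No source used here gives the strand setting of the counting, so reads of PINK1 and PINK1-AS cannot be told apart. Opposite-strand genes also cover the 3′ ends of BNIP3L (PNMA2, 3 counts in all) and FKBP8 (AC005387.1, 0 counts). Whether reads of BNIP3L or FKBP8 were left uncounted there was not tested. FUNDC2, the paralog of FUNDC1, held 164 counts and was called in none of the 5 comparisons.

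**Figure D4:**
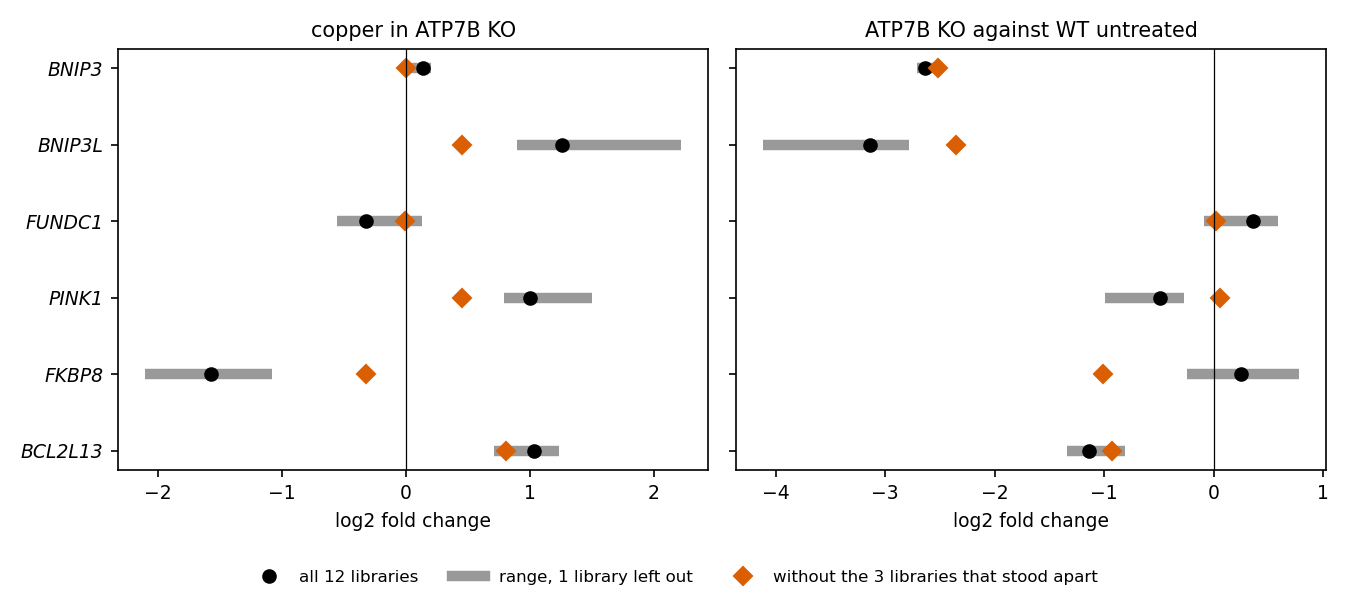
Log2 fold changes of the 6 genes for copper in KO (left) and KO against WT untreated (right), with all 12 libraries (black points), their range when 1 library is left out (grey bars) and the value without the 3 libraries that stood apart (diamonds). The bar of BNIP3 for KO against WT runs from -2.71 to -2.52 and that of BNIP3L from -4.12 to -2.78, and for copper in KO the diamonds of BNIP3L, PINK1 and FKBP8 lie nearer to 0 than their bars.

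Other genes that HIF is known to switch on moved in the same direction as BNIP3 and BNIP3L, which are not in the list. The list was chosen with earlier results of these data known, so its counts are a description and not independent support. Without copper, 27 of 29 tested HIF targets were lower in KO than in WT cells and 0 were higher, with a median log2 fold change of -2.32 against -0.016 over all genes tested, of which 14.0% were lower and 17.9% higher. Those with the smallest p were BHLHE40, a transcriptional repressor, at -4.22 ± 0.31 (edgeR adjusted p = 1.0e-05), P4HA1, a collagen prolyl hydroxylase subunit, at -2.49 ± 0.22 (3.0e-05), MXI1, a MYC antagonist, at -3.17 ± 0.29 (4.3e-05) and the stress-response gene NDRG1 at -3.67 ± 0.34 (5.1e-05). NDRG1 averaged 92.7 ± 47.4 CPM in KO and 1076 ± 51.3 CPM in WT cells. In copper, 17 of the 29 were lower in KO than in WT cells and 1 was higher, with a median of -1.43 against 0.047 over all genes tested, of which 8.03% were lower and 5.77% higher. MXI1 was at -2.98 ± 0.28 there (edgeR adjusted p = 7.3e-05). In the fit of 9 libraries the medians were -2.05 without copper, where KO is 1 library, and -1.51 with it. Over all genes tested in that fit they were -0.0010 and -0.0041.

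Within each line, copper went with fewer calls among the HIF targets in the fit of all 12 libraries. In KO cells copper raised 7 of the 29 and lowered 2, against 15.2% higher and 18.5% lower of all genes tested, with PFKFB3, a regulator of glycolysis, at 4.36 ± 0.35 (edgeR adjusted p = 8.1e-06) and the vasodilator peptide gene ADM at 2.57 ± 0.44 (0.00121). In WT cells copper lowered 9 and raised 1, against 6.68% lower and 8.23% higher of all genes tested, with ANKRD37 at -2.42 ± 0.29 (edgeR adjusted p = 0.000347) and SLC2A1, a glucose transporter, at -1.24 ± 0.29 (0.0144). Leaving out the 3 libraries that stood apart gave a median log2 fold change of 0.28 in KO cells, from a single untreated library, and -0.41 in WT cells. Over all genes tested in that fit these medians were 0 and 0.011.

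The HIF subunits themselves gave a mixed picture. HIF1A, the oxygen-regulated alpha subunit, averaged 104 ± 4.8 CPM in KO copper, 136 ± 38.5 in KO untreated, 193 ± 21.4 in WT copper and 96.6 ± 7.9 in WT untreated cells. Its mRNA rose with copper in WT cells by 1.02 ± 0.23 (edgeR adjusted p = 0.0111), and in copper KO was below WT, at -0.93 ± 0.23 (0.0191). Without copper its difference of 0.38 ± 0.23 between the lines was not called (edgeR adjusted p = 0.21), and it turned to -0.24 over 9 libraries (0.196). ARNT, the constant partner subunit, was lower in KO than in WT cells, at -1.36 ± 0.24 without copper (edgeR adjusted p = 0.0021) and at -1.08 ± 0.24 with it (0.0113). EPAS1, which encodes HIF-2 alpha, was lower too, at -0.95 ± 0.21 (edgeR adjusted p = 0.00644) and -0.94 ± 0.21 (0.0117). Of 8 tested HIF factors and oxygen sensors, 3 were lower and 2 higher in KO than in WT cells without copper, and 5 lower and 0 higher with it, against 14.0% lower and 17.9% higher, and 8.03% and 5.77%, of all genes tested. The fit of 9 libraries gave median log2 fold changes of -0.70 without copper and -0.75 with it.

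**Figure D5:**
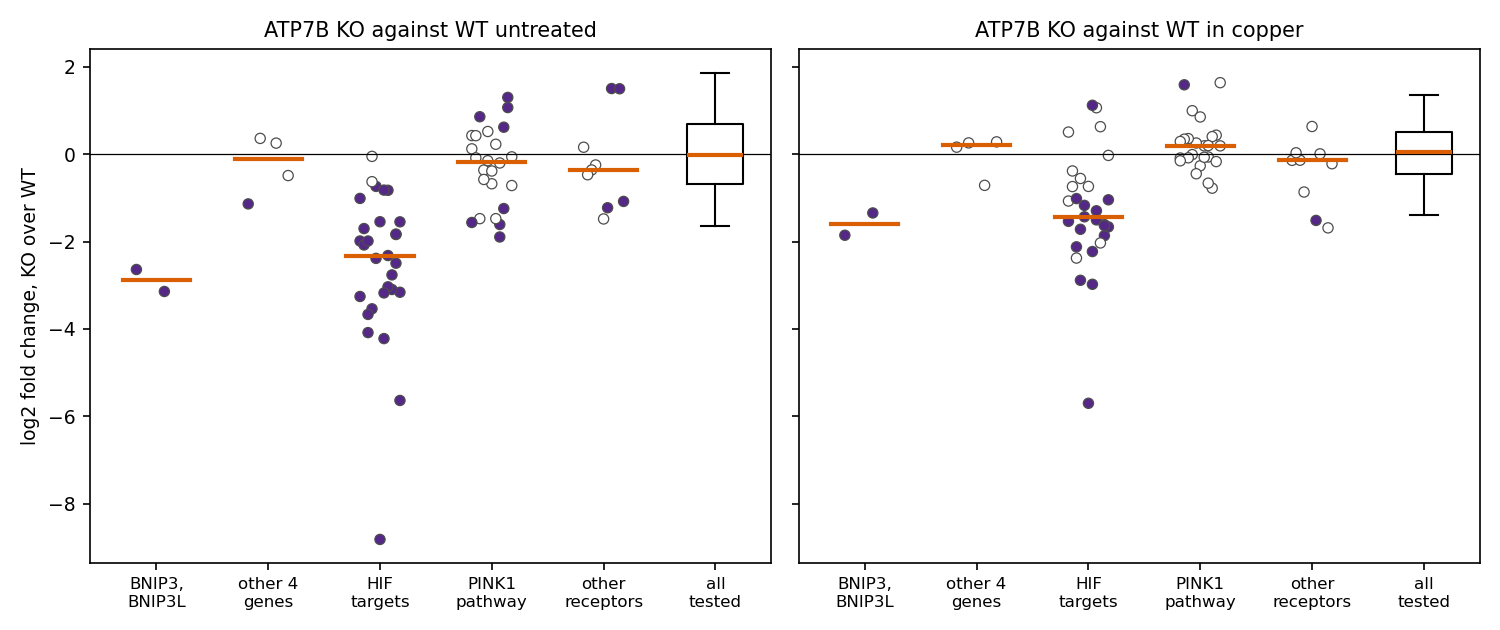
Log2 fold changes, KO over WT, of single genes (points, filled where called) in 5 groups and of all genes tested (box of quartiles with whiskers to percentiles 5 and 95), without copper (left) and with it (right), with orange lines at the medians and PINK1 shown in 2 of the groups. HIF targets lie mostly below 0 beside BNIP3 and BNIP3L, with medians of -2.32 and -1.43, and the PINK1 pathway group lies around 0. The lowest point in both panels is EGLN3, which had 0 counts in KO untreated libraries and under 3 counts in each KO copper library, so that its value is set by the fit and is no measured fold.

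The PINK1 pathway group had calls in both directions. Of its 24 tested genes, 4 were lower and 4 higher in KO than in WT cells without copper, and 0 lower and 1 higher with it, with medians of -0.17 and 0.19. Without copper that is about the 31.9% called in either direction over all genes tested, and with it below the 13.8%. TOMM20, an import receptor of the outer membrane, was at -1.89 ± 0.23 (edgeR adjusted p = 0.000264), RHOT1, a Miro protein that ties mitochondria to motors, at -1.24 ± 0.26 (0.00501), the outer membrane channel VDAC2 at -1.56 ± 0.36 (0.00756) and FBXO7, an F-box protein of a ubiquitin ligase complex, at -1.61 ± 0.42 (0.0139). VDAC2 and FBXO7 were at -0.89 and -0.75 over 9 libraries, both called. Copper raised 5 and lowered 2 of the 24 in KO cells, against 33.7% called of all genes tested, and raised 1, VCP, in WT cells, against 14.9%. VCP, an ATPase that extracts ubiquitinated proteins, was at 0.94 ± 0.18 in KO (edgeR adjusted p = 0.00231) and 1.15 ± 0.18 in WT cells (0.00162). In the fit of 9, the median log2 fold change of the 24 was -0.12 in KO against WT without copper and 0.0093 with it. For copper it was 0.052 in KO and -0.10 in WT cells.

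Further receptors went both ways. Of 9 tested, 2 were lower and 2 higher in KO than in WT cells without copper, against 14.0% lower and 17.9% higher of all genes tested. NIPSNAP1, a matrix protein displayed on damaged mitochondria, was lower in KO than in WT cells, at -1.23 ± 0.20 without copper (edgeR adjusted p = 0.00156) and at -1.52 ± 0.21 with it (0.000818). It fell with copper in both lines, by 1.27 ± 0.21 in KO (edgeR adjusted p = 0.000934) and by 0.98 ± 0.20 in WT cells (0.0075). MCL1, an anti-apoptotic protein that can bind LC3, was at -1.08 ± 0.35 in KO against WT without copper (edgeR adjusted p = 0.0329). CHDH, choline dehydrogenase, was at 1.50 ± 0.23 in the same comparison (edgeR adjusted p = 0.00109) and NLRX1, a mitochondrial member of the NOD-like receptors, at 1.50 ± 0.48 (0.0327). Over 9 libraries MCL1 was called at -0.52 and NLRX1 was not, at 0.47 (edgeR adjusted p = 0.215). With copper in KO cells CHDH was at -1.59 ± 0.23 (edgeR adjusted p = 0.000501) and NLRX1 at -3.49 ± 0.57 (0.000894), among 4 lower and 1 higher of the 9, against 18.5% and 15.2% of all genes tested. In the fit of 9 libraries the median log2 fold change of these receptors was -0.15 in KO against WT without copper, and -0.75 with copper in KO.

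Among the regulators that act on the receptors, 16 were tested, and 3 were lower and 2 higher in KO than in WT cells without copper and 0 lower and 2 higher with it, against 31.9% and 13.8% of all genes called in either direction. BCL2L1, which encodes the BCL-xL protein that restrains PGAM5 and so FUNDC1, was at 1.63 ± 0.42 in KO against WT without copper (edgeR adjusted p = 0.0131) and at -1.94 ± 0.42 with copper in KO (0.00475), and its copper effect differed between the lines by -2.50 ± 0.59 (0.0403). Its KO untreated mean was 1466 ± 844 CPM, with a range of 492 to 1997 CPM, and its WT untreated mean was 444 ± 5.3 CPM. These BCL2L1 values turned on the libraries that stood apart, and over the other 9 they were -0.054 (edgeR adjusted p = 0.755), -0.28 (0.0447) and -0.70 (0.00124). PGAM5, a phosphatase that activates FUNDC1, was higher in KO than in WT cells in copper, at 1.59 ± 0.42 (edgeR adjusted p = 0.0273), with 19.1 ± 2.2 CPM in KO and 6.04 ± 3.3 CPM in WT cells. SRC, a kinase that keeps FUNDC1 inactive, was at -0.93 ± 0.27 in KO against WT without copper (edgeR adjusted p = 0.0201), and was not called over 9 libraries at -0.33 (0.0679). In that fit the median log2 fold change of 17 tested regulators, KO against WT, was -0.20 without copper and 0.15 with it.

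Most of the LC3 and GABARAP genes tested, whose products the receptors bind, rose with copper in KO cells. GABARAPL1 averaged 246 ± 14.1 CPM in KO copper, 24.7 ± 14.3 in KO untreated, 239 ± 12.4 in WT copper and 59.6 ± 3.7 in WT untreated cells. Its copper effect was 3.39 ± 0.30 in KO (edgeR adjusted p = 1.5e-05) and 2.03 ± 0.28 in WT cells (0.000711). MAP1LC3B was at 3.19 ± 0.39 in KO (edgeR adjusted p = 0.000169) and 1.32 ± 0.36 in WT cells (0.0302). Of 4 tested genes of this family copper raised 3 and lowered 1, GABARAP, in KO cells, and raised 2 and lowered 0 in WT cells, against 15.2% higher and 18.5% lower of all genes tested in KO and 8.23% and 6.68% in WT cells. The 6 cargo adaptors link ubiquitin to LC3. Among them copper raised 3 and lowered 1 in KO cells and raised 2 and lowered 1 in WT cells. The shares of all genes tested are those just given. Over 9 libraries the median log2 fold change of the adaptors with copper was 0.75 in KO and 0.11 in WT cells. SQSTM1, the adaptor p62, was at 1.40 ± 0.35 in KO (edgeR adjusted p = 0.0098) and 2.98 ± 0.37 in WT cells (0.000461), and over 9 libraries at 2.53 in KO and 2.75 in WT cells, both called.

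Nuclear genes of mitochondrial shape and biogenesis had calls in both directions. Of 14 tested fission and fusion genes, 2 were lower and 2 higher in KO than in WT cells without copper, near the 14.0% lower and 17.9% higher of all genes tested, and 0 were called with it, against 13.8%. Over 9 libraries the median log2 fold change of these genes was 0.16 without copper and -0.063 with it. Of 13 tested biogenesis genes, 1 was lower and 2 higher without copper, against 14.0% and 17.9% of all genes tested. With copper 1 was lower and 1 higher, against 8.03% and 5.77%. The lower gene was PPARGC1A, a coactivator of mitochondrial biogenesis, at -1.65 ± 0.34 without copper (edgeR adjusted p = 0.00445) and -1.91 ± 0.45 with it (0.0154). Over 9 libraries the median of the biogenesis genes was 0.23 without copper, where KO is 1 library, and -0.19 with it. Genes encoded in the mitochondrion held 5.82% to 9.46% of all counts in KO and WT copper libraries and 2.97% to 3.80% in WT untreated libraries. Of 13 tested, 7 were higher in KO than in WT cells without copper, against 17.9% of all genes tested. Copper raised 6 of them in KO and 10 in WT cells, against 15.2% and 8.23%, and 0 were lower in any of these 3 comparisons. In the fit of 9 libraries the median log2 fold changes were 1.11, 0.75 and 1.76 in the same order. Leaving the mitochondrially encoded genes out of the library totals changed no call among the 6 genes.

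FOXO3 is known to drive transcription of the BNIP3 gene in mouse muscle. Of 11 tested FOXO factors and targets, 9 were lower and 1 higher in KO than in WT cells without copper, and 2 lower and 0 higher in copper, against 14.0% and 17.9%, and 8.03% and 5.77%, of all genes tested. PCK1, a gluconeogenic enzyme, was at -2.96 ± 0.43 without copper (edgeR adjusted p = 0.000727) and KLF9, a transcription factor, at -2.68 ± 0.47 (0.0021). In the fit of 9 libraries, 12 FOXO factors and targets were tested. Their median log2 fold change, KO against WT, was -1.0002 without copper, where KO is 1 library, and -0.73 with it. Over all genes tested in that fit these medians were -0.0010 and -0.0041. Hepatocyte markers were lower as well, with 6 of 10 called lower in KO than in WT cells without copper, 3 in copper, 6 for copper in KO and 8 for copper in WT, and 0 higher in each, where 14.0%, 8.03%, 18.5% and 6.68% of all genes tested were lower. The fit of 9 libraries gave median log2 fold changes of -0.57, -0.61, -1.28 and -0.99 for the markers in the same order. Their part in the levels of the 6 genes was not tested.

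BNIP3 and BNIP3L had a Pearson correlation of log2 CPM of 0.89 over 12 libraries and 0.98 over the 9 libraries that did not stand apart. Many genes were more alike to each. By correlation over 12 libraries BNIP3L came at rank 153 for BNIP3, and BNIP3 at rank 246 for BNIP3L, among the 7976 genes described below. These correlations describe libraries that share their lines and treatments. BNIP3 correlated with FUNDC1 at -0.28 over 12 and -0.33 over 9 libraries, and with PINK1 at 0.20 over 12 and -0.66 over 9. Among 7976 genes with a mean of at least 10 CPM, the most like BNIP3 were ERRFI1 (0.990), PLAC8 (0.989) and ENPP1 (0.988), and over 9 libraries GPC3 (0.996), GPI (0.995) and CNN3-DT (0.993). The most like BNIP3L were ZMYND8 (0.993), TM4SF1 (0.992) and PPP2R5C (0.990), and over 9 libraries SLC38A2 (0.998), FST (0.996) and IGFBP1 (0.995). FST stood at 0.636 over all 12.

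Of the 6 genes, PINK1 and BCL2L13 each had 1 of their 3 most like genes in common between 12 and 9 libraries, and the other 4 had 0. FUNDC1 was most like CUL1 (0.888), ARPC1A (0.858) and HEATR5B (0.841) over 12 libraries, and over 9 COMMD1 (0.926), MPDU1 (0.895) and AKT1 (0.882) came first. PINK1 was most like BAK1 (0.973), which also led over 9 libraries (0.961), then SCAMP3 (0.970) and UBTD1 (0.968), and over 9 TMEM11 (0.955) and TEX10 (0.951). FKBP8 was most like ECSIT (0.967), NHP2 (0.957) and FBXW9 (0.954), and over 9 KIF22 (0.968), ZNF580 (0.960) and MTFP1 (0.957). BCL2L13 was most like MALT1, at 0.992 over 12 and 0.970 over 9 libraries, then NDUFA6 (0.966) and RPE (0.957), and over 9 G2E3 (0.974) and ACTN1 (0.966).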

How the data were processed

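Each sample's total RNA (100 ng, per the labels' protocols) was made into a QuantSeq 3′ library with fragments of 300 bp, sequenced single-end over 75 bp. The submitters' processing notes name STAR 2.3.0, HTSeq and the hg19 build. Annotation release, strand setting and filters: not given in the sources used here. Raw read counts per gene were deposited by the authors, without normalization, in 1 file per library. Symbols from the gene name table and GENCODE v29, used for names and overlaps alone, named 45776 of 47634 IDs with 99.5% of all counts.

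Testing used edgeR 4.0.16 (R 4.3.3) with filterByExpr, which left 11051 genes, TMM scaling and a robust quasi-likelihood fit of 4 group means over 12 libraries, with a biological coefficient of variation of 29.1%. The Benjamini-Hochberg method adjusted p over all genes tested, with calls at 0.05, and "rose" and "fell" refer to such calls. The SE is the log2 fold change over the square root of F. Alternatives were DESeq2 1.42.0, voom in limma 3.58.1, relative log expression factors, no filter, no mitochondrially encoded genes, a replicate block, each library left out, and the 3 libraries that stood apart left out. The contrast of hypoxia-driven and other genes was also taken with another pseudocount and with TMM-scaled CPM. Summing BNIP3 with its pseudogene and taking lists, their named genes and the contrast without the 3 libraries were added after seeing the data. The 3 libraries themselves were also picked from these data. Intervals are not given for single counts, and the level of 3 counts covers counting error only, since reads without molecular identifiers are not independent molecules. Nothing but the word biological in the labels says that replicates were separate cultures.

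All 6 genes are named in every comparison. From each gene list up to 4 genes with the smallest p, or any of a list of 10 or fewer, may be named. For each of the 6 genes the 3 most correlated genes (log2 CPM, prior count 2, mean of at least 10 CPM) over 12 and over 9 libraries are named. The 6 genes, the lists and this rule were chosen with earlier results of these data known. Promoters of 300 bases were at hand in RefSeq for BNIP3, FUNDC1 and BCL2L13, and protein sequences were not used here.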

Additional observations from a re-analysis of the deposited data

How the results depend on the processing

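In KO against WT, BNIP3 was called in both treatments and BNIP3L without copper under every alternative run. BNIP3L, PINK1, FKBP8 and BCL2L13 rested on only 3 to 32 counts in KO untreated replicates 1 and 2. Among single genes, 529 alternative values kept direction and side of the threshold, 48 lost a call, 13 gained one and 10 changed sign, and the cause was not tested. Sign changes on leaving out 1 library were FUNDC1 without KO untreated replicate 2, within ranges of -0.56 to 0.13 for copper in KO, -0.089 to 0.59 for KO against WT untreated and -0.33 to 0.32 for the difference of copper effects, and FKBP8 for KO against WT untreated without KO untreated replicate 1, within -0.25 to 0.78. Voom turned FUNDC1 for the difference (0.069) and FKBP8 for KO against WT untreated (-0.13). Leaving out the 3 libraries that stood apart turned FUNDC1 (0.30) and FKBP8 (0.87) for the difference, and FKBP8 (-1.01) and PINK1 (0.054) for KO against WT untreated. BNIP3 alone turned the contrast for copper in KO to -0.042, and BNIP3L alone gave 1.38. Without the 3 libraries the contrast for the difference of copper effects was 0.062, against 1.07.

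Of the 6 genes, copper in WT had 0 calls with no filter and 2 without the 3 libraries, against 1. Copper in KO had 1 without the 3 libraries, against 4. The difference of copper effects had 3 with DESeq2, and 1 each with no filter, without the 3 libraries and with BNIP3 and BNIP3P1 summed, against 0. Over all genes without the 3 libraries, 4784 were called for copper in WT, 4527 for KO against WT in copper and 1049 for the difference, against 1648, 1525 and 545. The difference had 1831 with DESeq2, 139 with voom and 2366 with no filter.

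Leaving out each library in turn, calls among the 6 genes ran from 0 to 1 for copper in WT, 0 to 4 for copper in KO, 2 to 4 for KO against WT untreated, 1 to 2 for KO against WT in copper and 0 to 5 for the difference. Over all genes they ran from 736 to 3783, 2373 to 6635, 2058 to 6738, 673 to 3563 and 13 to 5888 in the same order of comparisons, each highest without KO untreated replicate 3. In a group left with 2 libraries, or with 1 as KO untreated without the 3 libraries, the spread is taken from the other groups.

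The labels give replicate numbers 1 to 3 in each group. Deviations of same-numbered libraries correlated between -0.22 and 0.09, so the numbers are not shown to pair the samples. With the replicate block the difference of copper effects had 113 calls over all genes, and no call among the 6 genes changed.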

Other observations

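BAK1, a pore-forming protein of the outer mitochondrial membrane, was the gene most like PINK1 over all 12 libraries and over the 9 that did not stand apart, with correlations of 0.973 and 0.961. MALT1 was first for BCL2L13 over 12 libraries (0.992) and second over 9 (0.970). These correlations share the lines, treatments and libraries and are descriptions.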
